A study of Homo sapiens with 24 samples.

Results

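The KMT2 (MLL) histone methyltransferases, menin and the DOT1L machinery were followed in 2 AML cell lines upon 8CA/8AA treatment. The 10 genes were KMT2A, KMT2B, KMT2C, KMT2D, MEN1, PSIP1, DOT1L, AFF1, MLLT1 and MLLT3. They were picked by symbol from the 23354 genes of the deposited count table, and all 10 were found. Both drugs are modified forms of adenosine, 8CA (8-chloro-adenosine) with chlorine and 8AA (8-amino-adenosine) with an amino group at the same place of the base. MV4-11 and KG-1a, both established human AML cell lines, received no drug, 8CA at 1 μM or 8AA at 1 μM, and RNA was sequenced at 8 h or 24 h. Each line had its own untreated group at each time, which makes 12 groups of 2 libraries (A and B), 24 in all.

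KMT2A to KMT2D place methyl groups on lysine 4 of histone H3, KMT2A and KMT2B mainly at promoters and KMT2C and KMT2D mainly at enhancers. Menin, the product of MEN1, binds KMT2A and together with LEDGF, the product of PSIP1, tethers it to chromatin. DOT1L methylates lysine 79 of histone H3, and AFF1 (AF4), MLLT1 (ENL) and MLLT3 (AF9) belong to the elongation complexes that act with it. In KMT2A-rearranged leukemia, KMT2A is fused to a partner, often AFF1, MLLT3 or MLLT1, and the fusion protein depends on menin and DOT1L. MV4-11 is known to carry a KMT2A-AFF1 fusion and KG-1a is not. Counts per gene cannot separate fusion reads from those of the normal KMT2A and AFF1 alleles, nor the PSIP1 transcripts that code for the p52 and p75 forms of LEDGF.

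In the coordinates of the deposited table, which names no genome build, KMT2A is on chromosome 11 (+ strand) from 118307205 to 118397539, MEN1 on the - strand of the same chromosome from 64570986 to 64578766, and DOT1L on the + strand of chromosome 19 from 2164148 to 2232577. The table's exon length was 17.2 kb for KMT2A, 18.9 kb for KMT2C, 19.4 kb for KMT2D, 11.6 kb for DOT1L, 10.2 kb for AFF1 and 8.43 kb for KMT2B. The other members were shorter, with 3.64 kb for MEN1, 4.03 kb for PSIP1, 4.49 kb for MLLT1 and 4.61 kb for MLLT3. PSIP1 overlaps SNAPC3 on the opposite strand, which held at most 1180 counts in a library. KMT2C has near-identical partial copies elsewhere in the genome, so its reads may have been split.

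Promoter sequences are shown for 5 members, of which KMT2A and KMT2C rose and MEN1 and MLLT1 fell with 8CA at 24 h in both lines, and MLLT3 was scarce in MV4-11. They are the 250 bases before the gene start in RefSeq (build GRCh38.p14), 5′ to 3′ on the gene's strand. As a check, bases just after each start were looked up in the gene's annotated transcripts (GENCODE). They were found for KMT2A, KMT2C, MEN1 and MLLT3 and not for MLLT1. Capitals mark matches to GGGCGG and to CCAAT on either strand, CCGCCC and ATTGG being the reverse complements.
KMT2A, chr11:118436242-118436491, + strand: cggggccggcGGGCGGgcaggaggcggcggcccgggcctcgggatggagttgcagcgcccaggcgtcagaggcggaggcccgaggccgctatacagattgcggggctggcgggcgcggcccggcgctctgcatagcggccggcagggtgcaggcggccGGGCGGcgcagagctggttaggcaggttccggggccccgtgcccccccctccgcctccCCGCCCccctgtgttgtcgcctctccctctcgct
KMT2C, chr7:152436004-152436253, - strand: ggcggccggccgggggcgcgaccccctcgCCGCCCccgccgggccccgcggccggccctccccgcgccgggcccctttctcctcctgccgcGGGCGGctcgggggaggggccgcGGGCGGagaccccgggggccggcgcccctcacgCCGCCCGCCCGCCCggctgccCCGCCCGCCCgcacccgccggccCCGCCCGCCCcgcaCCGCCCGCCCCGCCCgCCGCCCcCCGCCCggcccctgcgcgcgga
MEN1, chr11:64810552-64810801, - strand: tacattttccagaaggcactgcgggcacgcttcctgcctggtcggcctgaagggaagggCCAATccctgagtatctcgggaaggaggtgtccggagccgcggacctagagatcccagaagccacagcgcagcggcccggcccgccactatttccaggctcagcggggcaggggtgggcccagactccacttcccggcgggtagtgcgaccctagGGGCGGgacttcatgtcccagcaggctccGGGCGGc
MLLT1, chr19:6279976-6280225, - strand: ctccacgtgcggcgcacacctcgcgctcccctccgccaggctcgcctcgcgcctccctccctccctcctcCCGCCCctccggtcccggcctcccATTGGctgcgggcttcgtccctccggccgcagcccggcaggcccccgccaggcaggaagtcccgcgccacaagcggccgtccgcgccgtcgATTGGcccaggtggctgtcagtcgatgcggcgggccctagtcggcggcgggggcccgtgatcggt
MLLT3, chr9:20622500-20622749, - strand: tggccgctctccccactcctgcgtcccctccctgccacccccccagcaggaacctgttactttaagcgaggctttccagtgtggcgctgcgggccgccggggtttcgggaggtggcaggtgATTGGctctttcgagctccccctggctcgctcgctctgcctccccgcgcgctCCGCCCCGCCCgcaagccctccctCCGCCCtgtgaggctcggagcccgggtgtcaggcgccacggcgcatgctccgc
RefSeq entries were used for 9 members, all except DOT1L. GGGCGG was present in 8 of these 9, all except PSIP1, and in 42.6% of 35116 promoters of the same length. CCAAT was present in AFF1, MLLT3, MEN1 and MLLT1 (4 of 9, against 32.0% of all promoters). CACGTG was present in KMT2D and MLLT1 (2 of 9, against 6.3%), and CCGGAAG in 0 of 9 (against 8.5%). The entries of KMT2D, MLLT1 and KMT2B failed the check of the bases after the start, so their starts rest on RefSeq alone. The GC content of these promoters lay between 61.6% for PSIP1 and 92.0% for KMT2C, and the median of all promoters was 58.0%. KMT2A, KMT2B, KMT2C and KMT2D had GGGCGG but no CCAAT, and MEN1, MLLT1, AFF1 and MLLT3 held both motifs. The part of these motifs in the changes of the genes was not tested.

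Library totals lay between 18633963 and 24520078 counts. The 2 libraries of a group differed by a chi-square per degree of freedom of 1.43 to 5.2 in 11 groups and by 12.3 in the KG-1a pair given 8AA for 24 h. There, library B lay above library A for 8 of the 10 genes, all except MEN1 and MLLT1. PTPRC, a marker of blood cells, was present in every library. CD34 lay between 325 and 629 CPM in KG-1a and was at most 0.174 CPM in MV4-11. The myeloid markers CD33, SPI1 and MPO were low in KG-1a. CD33 lay between 104.6 and 140.7 CPM in MV4-11 and was at most 1.02 in KG-1a. SPI1 lay between 218.5 and 280.4 CPM in MV4-11 and between 5.86 and 7.81 in KG-1a. MPO lay between 8.01 and 13 CPM in MV4-11 and was at most 2.16 in KG-1a. CSF3R was alike, with 41.3 to 78.0 CPM in MV4-11 and 46.9 to 83.4 in KG-1a. MEIS1, a target of KMT2A fusions, lay between 85.2 and 104 CPM in MV4-11 and was at 0 in KG-1a. FLT3, another such target, lay between 426 and 621 CPM in MV4-11 and was at most 1.32 in KG-1a. HOXA9, also such a target, went the other way, with 7.1 to 9.4 CPM in MV4-11 and 22.3 to 27.8 in KG-1a. Of 7 markers of other cell types, CD3E, MS4A1 and EPCAM were at 0 in MV4-11, where all 7 summed to between 0.675 and 2.79 CPM. In KG-1a, MS4A1, HBB and EPCAM were at 0, and the sum of 22.7 to 79.1 CPM was mostly CD3E. The part of these transcripts in the results was not tested. RNA of a whole culture was measured, so fewer cells and less RNA per cell cannot be told apart. Nothing in the labels says that A and B were separate cultures, so p-values measure the spread between these libraries, which may be technical.

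Of the 10 genes, 9 were readily measured in both lines, and MLLT3 in KG-1a alone. Levels between genes are compared in RPKM (TMM-normalized CPM per kb of exon). In MV4-11 the median over all 12 libraries, treated or not, was 61.9 RPKM for MLLT1, 32.6 for AFF1, 24.0 for MEN1, 22.0 for PSIP1, 21.8 for KMT2A, 20.4 for DOT1L, 18.9 for KMT2D, 14.9 for KMT2B and 11.8 for KMT2C. The ranges of MEN1, PSIP1, KMT2A, DOT1L and KMT2D overlapped over the 12 libraries, as did those of KMT2B and KMT2C, so their order is not settled. MLLT3 was at 0.289 RPKM, with 11 to 43 counts in a library. In KG-1a the order was AFF1 with 55.8 RPKM, KMT2A with 43.8, MEN1 with 39.1, PSIP1 with 37.4, MLLT1 with 35.2, KMT2D with 20.3, KMT2B and DOT1L with 14.1 each, MLLT3 with 12.9 and KMT2C with 12.8, and neighbours in this order overlapped except MLLT1 and KMT2D, and KMT2D and KMT2B.

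**Figure D1:**
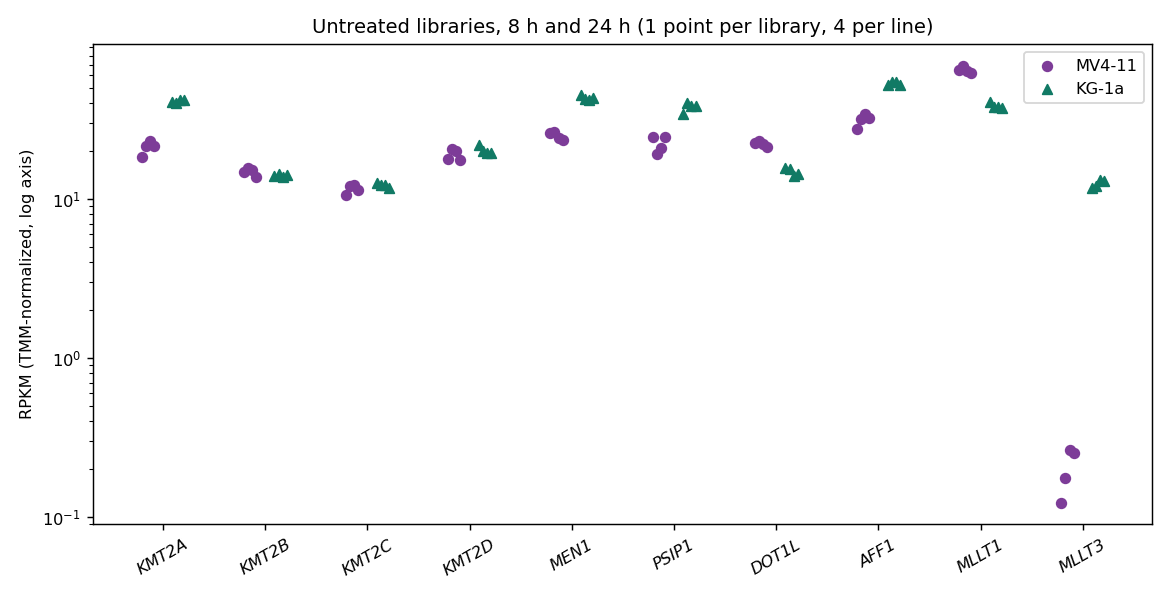
Levels of the 10 genes in the untreated libraries of MV4-11 (circles) and KG-1a (triangles), in RPKM on a log axis, 1 point per library and 4 per line. MLLT3 in MV4-11 lies between 0.123 and 0.262 RPKM, below every other gene, and the points of KMT2B, KMT2C and KMT2D are nearly level between the lines.

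The lines were compared in a fit of all 24 libraries by the quasi-likelihood test of edgeR with p-values adjusted after Benjamini-Hochberg over every tested gene and a threshold of 0.05. Of the 10 genes, 2 were higher and 5 lower in MV4-11 at 8 h, and the same counts were found at 24 h. Across all 14055 genes, 82.2% were called at 8 h and 82.0% at 24 h, so 7 of 10 is no more than the background. KMT2A stood at 18.3 and 21.5 RPKM in untreated MV4-11 and at 41.0 and 40.1 in untreated KG-1a at 8 h, a log2 difference of −1.03 (standard error 0.066, adjusted p = 4.77e-13 by this edgeR test). AFF1, the fusion partner in MV4-11, stood at 27.8 and 31.9 RPKM in MV4-11 and at 52.4 and 54.4 in KG-1a at 8 h, a difference of −0.84 on the log2 scale. Both genes of the fusion were thus lower in the line that carries it, with no overlap between the libraries. MEN1 and PSIP1, whose products bind KMT2A, were also lower in MV4-11, with log2 differences at 8 h of −0.75 and −0.76. DOT1L and MLLT1 were higher in MV4-11, with 0.56 and 0.76. MLLT3 was at 11 and 17 counts in untreated MV4-11 and at 1017 and 1181 in KG-1a at 8 h, a log2 difference of −6.30 (0.0127-fold), and at 24 h it was −5.66 (0.0197-fold). KMT2B, KMT2C and KMT2D were not called between the lines, with 95% confidence intervals at 24 h of −0.05 to 0.16, −0.16 to 0.12 and −0.19 to 0.11 for the log2 difference. At 8 h these intervals were −0.011 to 0.206, −0.275 to −0.002 and −0.262 to 0.038. The 8 h libraries of MV4-11 lay above those of KG-1a for KMT2B and below them for KMT2C (adjusted p = 0.0884 and 0.057 by the edgeR test). Equal levels are thus not shown.

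After 8 h, 8CA changed few of these genes and 8AA lowered a set of 4 in both lines, of which MEN1 in MV4-11 was the least stable call. The 12 libraries of a line were fitted together for each treated group against the untreated group of its line and time, and levels below are TMM-normalized CPM. With 8CA, 1 of the 10 genes passed in MV4-11, where 10.4% of 12800 genes did, and 0 of 10 in KG-1a, where 0.881% of 12711 genes did; at an unadjusted p below 0.05, MEN1 alone passed in KG-1a, and DESeq2's Wald test called 0. With 8AA, 5 of 10 passed in each line, 1 higher and 4 lower, against 29.2% of all genes in MV4-11 and 34.7% in KG-1a. The 4 lower genes were KMT2D, MEN1, DOT1L and MLLT1 in both lines, and the higher one was MLLT3. The share of all genes called in the same direction in both lines was not computed.

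DOT1L, the H3K79 methyltransferase, was the gene that 8CA lowered in MV4-11. It stood at 256 and 262 CPM untreated, 228 and 229.8 upon 8CA and 217 and 211 upon 8AA at 8 h. Each treated library lay below both untreated ones, and 8CA gave a log2 fold change of −0.18 (standard error 0.0426, adjusted p = 0.0162 by the edgeR test) and 8AA one of −0.27 (standard error 0.0426, adjusted p = 0.000205). The fit was repeated with each library of the compared groups removed in turn (leave-one-out fits). The 8CA call was lost in 3 of the 4 leave-one-out fits, with an adjusted p of up to 0.0743, and the 8AA call in 0 of 4. In KG-1a, DOT1L stood at 188 and 184 CPM untreated, 187 and 190.4 upon 8CA and 155 and 172 upon 8AA. The 8CA libraries of KG-1a were level with the untreated ones (log2 fold change 0.02, 95% confidence interval −0.09 to 0.13), and with 8AA DOT1L fell by 0.19 on the log2 scale (adjusted p = 0.0103). This call was lost without library A of either group, with an adjusted p of up to 0.181. Across the 4 fits of KG-1a with 8AA at 8 h, between 1 and 4 of the 10 genes were called.

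MLLT1, a YEATS-domain reader of acylated histones, was lowered by 8AA in both lines. In KG-1a it stood at 189.8 and 176 CPM untreated, 179 and 177 upon 8CA and 154 and 141 upon 8AA. The log2 fold change with 8AA was −0.31 (standard error 0.0543, adjusted p = 0.000431 by the edgeR test), and the call held in 4 of 4 leave-one-out fits. In MV4-11 it was −0.20 (adjusted p = 0.00828), and leaving out untreated library B or 8AA library A ended the call (adjusted p of up to 0.0675). KMT2D fell by 0.23 on the log2 scale in MV4-11 and by 0.24 in KG-1a, and MEN1 fell by 0.14 and by 0.20. KMT2D lost its call in 2 of 4 fits in MV4-11 (without library B of either group) and in 3 of 4 in KG-1a, where the adjusted p reached 0.184 and 0.142. MEN1 lost its call in 4 of 4 fits in MV4-11 and in KG-1a without untreated library A or 8AA library B, with an adjusted p of up to 0.131 and 0.107. In MV4-11 the MEN1 call was also lost under 7 of 10 other settings, among them library size only, upper quartile scaling, no filter and DESeq2's Wald test, with an adjusted p of up to 0.126.

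MLLT3 showed the largest fold change of the 10 genes, at the lowest counts. In MV4-11 at 8 h it was at 11 and 17 counts untreated, 29 and 27 upon 8CA and 42 and 43 upon 8AA. Every treated library was above both untreated ones. The log2 fold change was 1.50 with 8AA (2.82-fold, standard error 0.277, adjusted p = 0.000838 by the edgeR test), a call that held in every fit that left out 1 library. With 8CA it was 0.97 and not called (95% confidence interval 0.33 to 1.61, adjusted p = 0.0528). In KG-1a, where MLLT3 was abundant, it stood at 55.8 and 57.3 CPM untreated, 59.6 and 58.3 upon 8CA and 63.2 and 62.2 upon 8AA, and 8AA raised it by 0.15 on the log2 scale (adjusted p = 0.0332), a call lost in 4 of 4 leave-one-out fits and under 4 of 10 other settings (adjusted p of up to 0.164). The 8AA change at 8 h was larger in MV4-11 than in KG-1a by 1.39 on the log2 scale (standard error 0.225, adjusted p = 0.000238 by the edgeR test of the difference). That standard error, from the fit of all 24 libraries, lies below the 0.277 of the MV4-11 change alone. It may thus be too small at these low counts. The untreated MV4-11 libraries themselves held 25 and 25 counts at 24 h, above their 11 and 17 at 8 h.

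**Figure D2:**
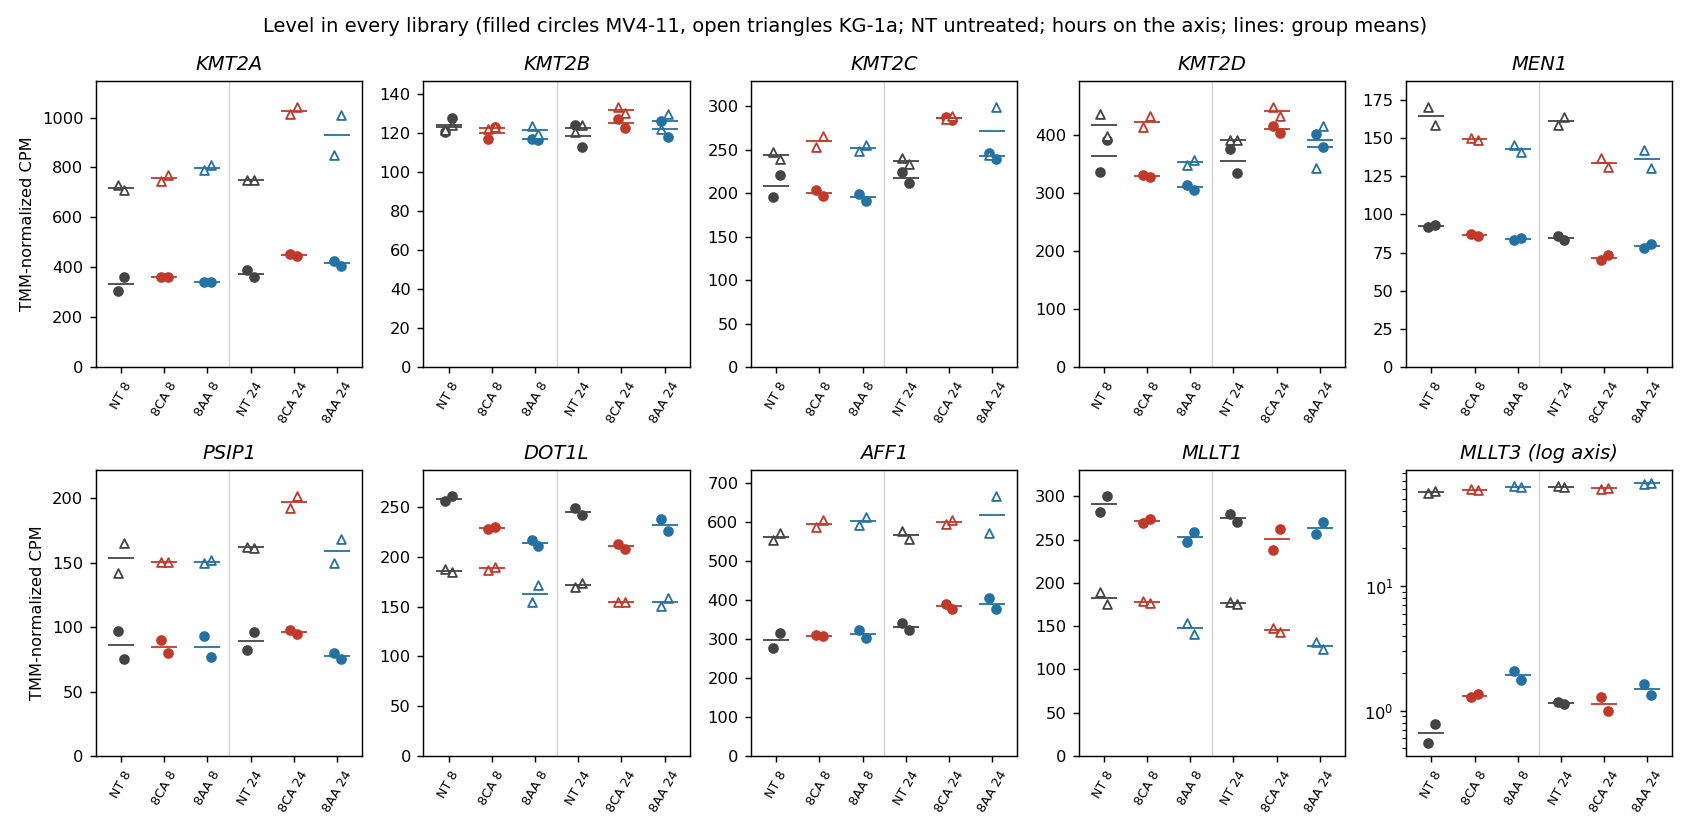
Level of each gene in every library in TMM-normalized CPM (linear axes from 0, a log axis for MLLT3), with filled circles for MV4-11, open triangles for KG-1a and short lines for the mean of 2 libraries. At 24 h the KMT2A, KMT2C and KMT2D points lie higher with 8CA than untreated in both lines, and those of MEN1, DOT1L and MLLT1 lie lower.

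By 24 h of 8CA, 6 of the 10 genes were called in the same direction in both lines. KMT2A, KMT2C and KMT2D rose, and MEN1, DOT1L and MLLT1 fell, in MV4-11 and in KG-1a alike. In each line 7 of 10 genes were called, 4 higher and 3 lower, against 43.9% of all genes in MV4-11 and 47.4% in KG-1a. These shares are for single lines, and the share of all genes called alike in both lines was not computed. The remaining gene that rose was AFF1 in MV4-11 and PSIP1 in KG-1a. The median log2 fold change of the 10 was 0.095 in MV4-11 and 0.094 in KG-1a, beside 0.002 and 0.007 over all genes tested.

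Among the methyltransferases, KMT2A showed the largest rise in KG-1a and KMT2C in MV4-11. KMT2A stood at 749 and 751 CPM in untreated KG-1a and at 1013 and 1042 with 8CA, a log2 fold change of 0.45 (1.37-fold, standard error 0.0605, adjusted p = 1.92e-05, edgeR's quasi-likelihood test). In MV4-11 it stood at 389 and 361 untreated and at 455 and 446 with 8CA, a log2 fold change of 0.26 (1.2-fold, adjusted p = 0.00217). The treated libraries were above the untreated ones in each line, and both calls held in 4 of 4 leave-one-out fits. KMT2C stood at 224 and 211 CPM in untreated MV4-11 and at 288 and 284 with 8CA, a log2 fold change of 0.39 (1.31-fold, standard error 0.0536, adjusted p = 3.15e-05), and in KG-1a at 240.0 and 233 untreated and 285 and 288 with 8CA, a log2 fold change of 0.28 (adjusted p = 0.00356). Its calls also held in all of these fits. KMT2D rose by 0.21 in MV4-11 and by 0.17 in KG-1a on the log2 scale, and its calls were lost in MV4-11 without untreated library B or 8CA library A and in KG-1a in all 4 fits, with an adjusted p of up to 0.223 and 0.215. In KG-1a it was also lost with fits of 6 or of 24 libraries (up to 0.101). KMT2B, the closest relative of KMT2A, was not called in any of the 8 comparisons of treated with untreated cells, and its log2 fold changes lay between −0.09 and 0.11.

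Of the cofactors that tether KMT2A, MEN1 fell in both lines and PSIP1 rose in KG-1a. MEN1 stood at 85.6 and 83.3 CPM in untreated MV4-11 and at 69.9 and 73.3 with 8CA, a log2 fold change of −0.24 (standard error 0.0475, adjusted p = 0.000819 by the edgeR test). In KG-1a it stood at 158 and 164 untreated and at 137 and 131 with 8CA, a log2 fold change of −0.27 (adjusted p = 0.000717). Both calls held in 4 of 4 leave-one-out fits. PSIP1 rose in KG-1a, from 162 and 161 CPM to 193 and 202 (log2 fold change 0.29, adjusted p = 0.00204), and in MV4-11 its untreated libraries, at 82.2 and 95.8, overlapped those with 8CA, at 97.5 and 94.96 (log2 fold change 0.11, not called). The change of PSIP1 did not pass the test of the difference between the lines (−0.15, 95% confidence interval −0.43 to 0.12).

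Within the elongation complexes, DOT1L and MLLT1 fell and AFF1 rose. DOT1L stood at 249 and 242 CPM in untreated MV4-11 and at 213 and 208 with 8CA (log2 fold change −0.22, adjusted p = 0.000605), and in KG-1a at 169.7 and 174 untreated and at 154 and 155 with 8CA (−0.15, adjusted p = 0.0242, lost in 3 of 4 leave-one-out fits, where it reached 0.13, and by library size only or upper quartile scaling, where it reached 0.0796). MLLT1 stood at 177 and 176 CPM in untreated KG-1a and at 148 and 144 with 8CA (−0.28, adjusted p = 0.000691). In MV4-11 its change was −0.14 with an adjusted p of 0.045, a call that 3 of 4 such fits lost, without either untreated library or without 8CA library A (adjusted p of up to 0.419), and that was lost under 6 of 10 other settings (up to 0.162). AFF1 stood at 339.6 and 322 CPM in untreated MV4-11 and at 390.5 and 376 with 8CA (0.21, adjusted p = 0.00857 by the edgeR test), a call that was lost without untreated library B or without 8CA library A (adjusted p of up to 0.0996). In KG-1a its change was 0.08 and not called, and the difference between the lines was 0.15 and not called either (95% confidence interval −0.03 to 0.34). MLLT3 was not called with 8CA at 24 h in either line.

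With 8AA for 24 h, KG-1a showed 5 calls and MV4-11 2. In KG-1a, 2 genes were higher and 3 lower, against 51.9% of all genes called, and in MV4-11 2 were higher and 0 lower, against 29.1%. 8CA and 8AA were compared with the same untreated libraries, so calls common to both are not independent. MLLT1 in KG-1a fell furthest, to 132 and 123 CPM from 177 and 176 (log2 fold change −0.47, 0.722-fold, standard error 0.0548, adjusted p = 3.6e-06 by the edgeR test). KMT2A in KG-1a stood at 848 and 1011 CPM with 8AA, above its 749 and 751 untreated (log2 fold change 0.31, adjusted p = 0.000491), and MEN1 fell by 0.24 on the log2 scale (adjusted p = 0.00133). These 3 calls held in 4 of 4 leave-one-out fits, although the pair of 8AA libraries stands apart. KMT2C rose by 0.20 and DOT1L fell by 0.15, and these calls were lost in 3 of 4 fits for KMT2C and without untreated library B or 8AA library A for DOT1L, with an adjusted p of up to 0.4 and 0.116. The DOT1L call was also lost by library size only and by upper quartile scaling (up to 0.381), and that of KMT2C with only the 6 libraries of the line and hour (0.0641). In MV4-11, AFF1 rose by 0.24 (404 and 376 CPM against 339.6 and 322, adjusted p = 0.00657) and KMT2C by 0.16 (adjusted p = 0.0401). The KMT2C call was lost in all 4 such fits, by DESeq2's Wald test and with all 24 libraries, and that of AFF1 without untreated library B or without 8AA library A, and between 0 and 2 of the 10 genes were called across them.

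**Figure D3:**
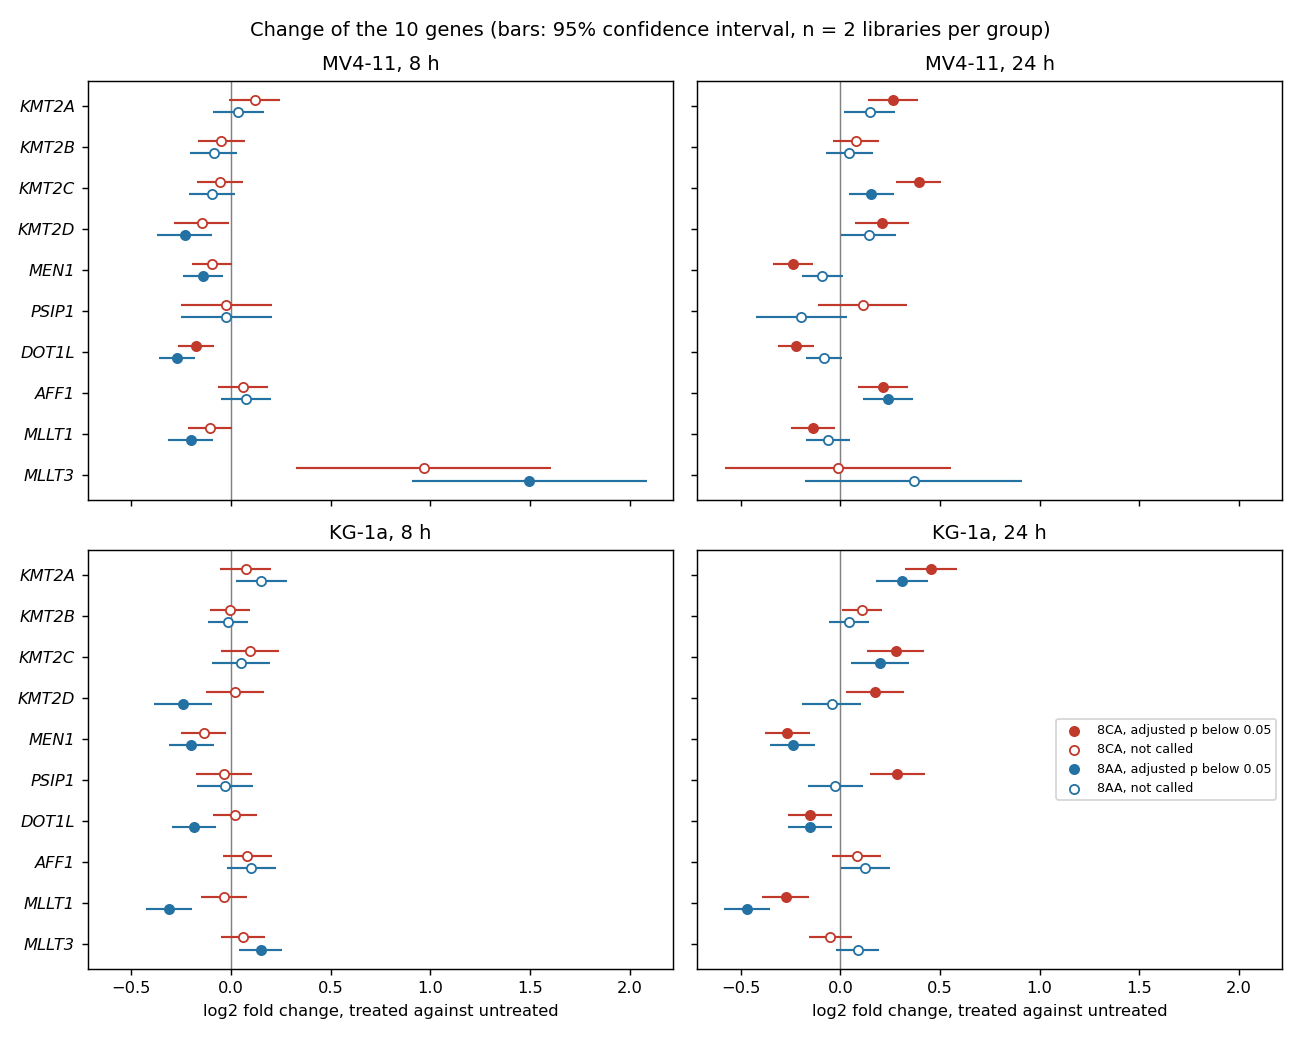
Log2 fold change of each gene against the untreated libraries of the same line and time, for 8CA (red) and 8AA (blue), with 95% confidence intervals and filled symbols at an adjusted p below 0.05 (n = 2 libraries per group). MLLT3 in MV4-11 reaches 1.50 with wide intervals, and the changes of the other 9 genes lie between −0.47 and 0.45.

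The scaling of the libraries bears on the direction counts. By library size only, the split in KG-1a with 8AA at 24 h was 5 higher and 2 lower, against 2 and 3 by TMM, and the median of all genes moved from 0.013 to 0.108. Between the untreated lines at 24 h it moved that median from 0.000 to −0.109, with 7 calls under both scalings. With 8CA at 24 h that scaling gave 5 higher and 2 lower in KG-1a and 4 and 2 in MV4-11. At 8 h it gave 2 higher and 4 lower in KG-1a with 8AA and 1 higher and 1 lower in MV4-11 with 8CA. Among all called genes, the lower share fell from 51.2% by TMM to 35.5% in KG-1a with 8AA at 24 h. With 8CA at 24 h this share fell from 50.6% to 45.6% in KG-1a and from 51.8% to 41.1% in MV4-11. At 8 h this share fell from 51.9% to 41.8% in KG-1a with 8AA and from 55.8% to 38.3% in MV4-11 with 8CA. The background thus shifted as well, and a shift particular to these genes was not tested. No called gene changed direction under any alternative.

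Longer genes were called higher more often at 24 h, and 6 of the 10 genes, the KMT2 family, DOT1L and AFF1, have over 8 kb of exon. Of the genes with over 8 kb of exon, 41.9% were called higher and 9.7% lower in MV4-11 with 8CA, and 39.8% and 13.4% in KG-1a, with class medians of 0.145 and 0.134 on the log2 scale. Of those under 2 kb, 10.4% were called higher and 30.3% lower in MV4-11 with 8CA. With 8CA, KMT2C lay 0.25 above the median of its length class in MV4-11 and 0.14 above in KG-1a. KMT2A lay 0.12 above it in MV4-11 and 0.32 above in KG-1a. KMT2D lay only 0.06 and 0.04 above it, and AFF1 lay 0.07 above in MV4-11 and at −0.05 in KG-1a. DOT1L went against its class, at −0.37 from the median in MV4-11 and −0.29 in KG-1a. MEN1 lay at −0.21 and −0.25 from the median of genes of 2 to 4 kb. With 8AA the class over 8 kb had medians of 0.057 in MV4-11 and 0.072 in KG-1a. KMT2A lay 0.09 and 0.24 above these medians, and DOT1L at −0.14 and −0.23 from them. The part of gene length in these results was not tested.

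**Figure D4:**
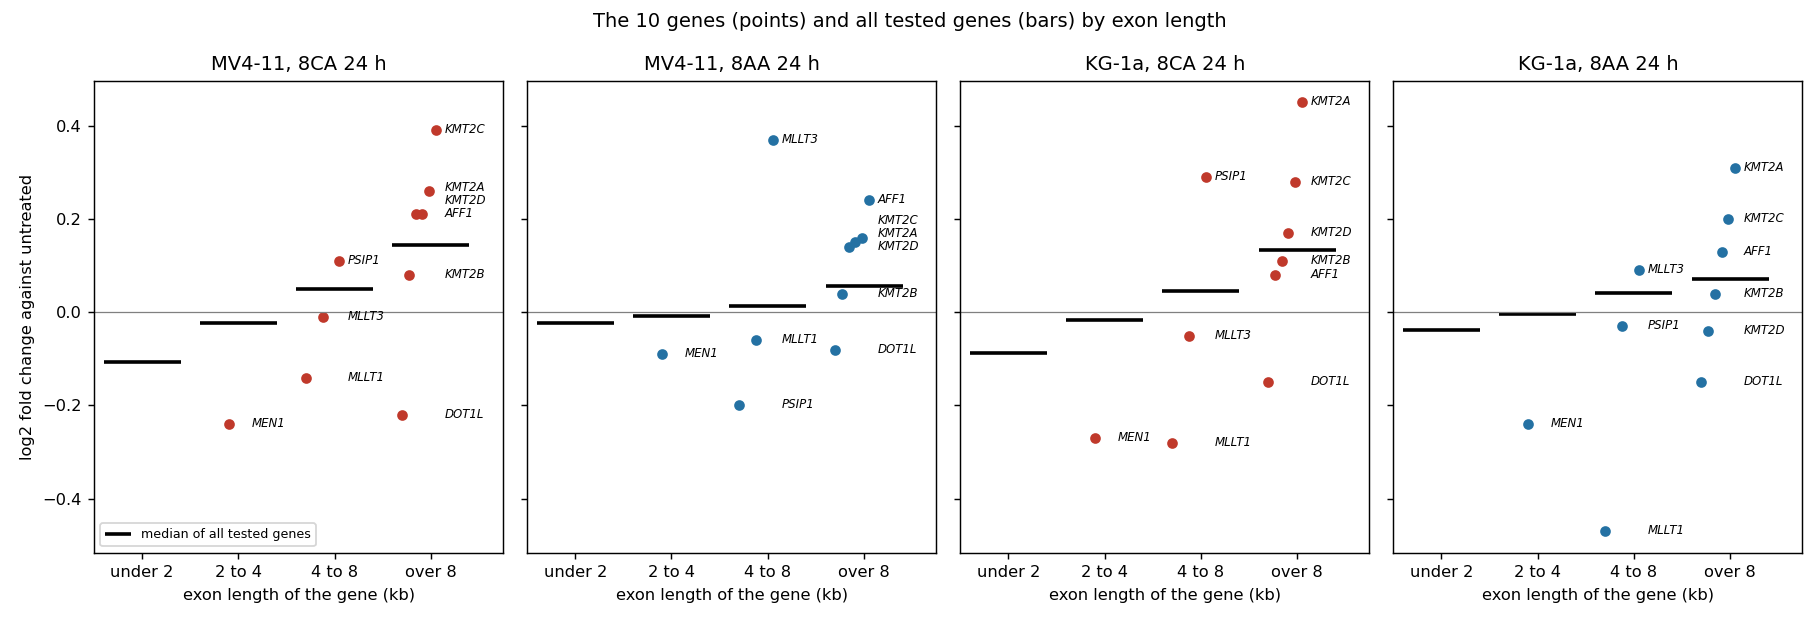
Log2 fold change at 24 h of the 10 genes (points) by class of exon length in kb, with the median of all tested genes of each class (black bars). The bars climb with length, and DOT1L lies below zero in the class over 8 kb in all 4 panels.

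8AA and 8CA were then compared directly at the same dose and time, as 10 genes in each of 4 comparisons. In MV4-11 at 8 h, 0 of 10 differed by edgeR's quasi-likelihood test (6.66% of all genes did), with DOT1L and MLLT3 at an unadjusted p below 0.05 and 0 by DESeq2's Wald test. The intervals were narrow for MEN1 (−0.15 to 0.06) and wide for MLLT3 (0.03 to 1.04), so equal action is not shown. In KG-1a at 8 h, 3 of 10 differed (30.4% of all genes), all lower with 8AA. They were KMT2D (−0.26, adjusted p = 0.00937), DOT1L (−0.21, adjusted p = 0.00649) and MLLT1 (−0.27, adjusted p = 0.00139), and the MLLT1 call held in 4 of 4 leave-one-out fits. The calls of KMT2D and DOT1L were lost without 8CA library B or 8AA library A, with an adjusted p of up to 0.0888 and 0.127.

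At 24 h, PSIP1 was lower with 8AA than with 8CA in both lines. In KG-1a it stood at 149.7 and 169 CPM with 8AA and 193 and 202 with 8CA, a log2 difference of −0.31 (standard error 0.065, adjusted p = 0.00126 by the edgeR test), and in MV4-11 at 80.2 and 75.2 with 8AA and 97.5 and 94.96 with 8CA, also −0.31 (standard error 0.106, adjusted p = 0.049). The call in KG-1a held in 4 of 4 leave-one-out fits and that in MV4-11 in 0 of 4, and the latter was also lost under 4 of 10 other settings (adjusted p of up to 0.152). In MV4-11, 4 of 10 genes differed (21.2% of all genes), the others being KMT2C (−0.24, adjusted p = 0.00532), MEN1 (0.15, adjusted p = 0.038) and DOT1L (0.14, adjusted p = 0.0285). In each of the 4 leave-one-out fits, 1 of 10 was called in MV4-11, where MEN1 lost its call in 4, DOT1L in 3 and KMT2C in 1. MEN1 and DOT1L were also not called with no filter or by DESeq2 (adjusted p of up to 0.132 and 0.0585). In KG-1a, 4 of 10 differed (42.0% of all genes), the others being KMT2D (−0.22), MLLT1 (−0.19) and MLLT3 (0.14). Without 8CA library A, KMT2D, MLLT1 and MLLT3 were not called, KMT2D was also lost without 8AA library A, and MLLT3 without library B of either drug (adjusted p of up to 0.127 for KMT2D, 0.0844 for MLLT1 and 0.194 for MLLT3). Between 1 and 5 genes were called across the 4 fits. Under 10 other settings MLLT3 lost its call in 5, KMT2D in 3 and MLLT1 in 2. KMT2A was not called between the drugs at 24 h in either line, with 95% confidence intervals of −0.24 to 0.01 in MV4-11 and −0.27 to −0.02 in KG-1a.

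The change at 24 h was set against that at 8 h in the same fits. With 8CA in MV4-11, 2 of 10 genes differed between the times (16.3% of all genes), KMT2C by 0.45 and KMT2D by 0.36 on the log2 scale, both higher at 24 h. With 8CA in KG-1a, 3 of 10 differed (23.9% of all genes), KMT2A by 0.38, PSIP1 by 0.32 and MLLT1 by −0.24. With 8AA in MV4-11 KMT2D alone differed (4.63% of all genes), from a fall at 8 h of 0.23 to a change at 24 h of 0.14 that was not called, a difference of 0.38 (adjusted p = 0.029, edgeR's quasi-likelihood test). With 8AA in KG-1a, 0 of 10 differed (18.3% of all genes), with 0 of 10 at an unadjusted p below 0.05 and 0 by DESeq2's Wald test as well. KMT2C with 8CA in MV4-11 and KMT2A with 8CA in KG-1a kept their calls in 8 of 8 leave-one-out fits. PSIP1 and MLLT1 in KG-1a lost theirs in 6 and 7 of 8 (adjusted p of up to 0.12 and 0.134), and KMT2D in MV4-11 in 3 of 8 with 8CA and 4 of 8 with 8AA, each time including untreated library B of 8 h and of 24 h (up to 0.0807 and 0.172). With 8AA in KG-1a, 5 genes were called without 8AA library A of 24 h and 0 in each of the other fits.

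Between the lines, few changes of the 10 genes differed. With 8CA, 0 of 10 differed at 8 h (1.15% of all genes) and 0 of 10 at 24 h (11.2%). At an unadjusted p below 0.05 these were DOT1L and MLLT3 at 8 h and 0 genes at 24 h, and DESeq2's Wald test called 0 at both times. With 8AA, MLLT3 differed at 8 h (11.1% of all genes), and MLLT1 at 24 h (22.3%). The fall of MLLT1 at 24 h of 8AA was −0.47 in KG-1a, and in MV4-11 the change was −0.06 and not called (257 and 271 CPM against 279.8 and 271). The difference was 0.43 on the log2 scale (standard error 0.0796, adjusted p = 0.000305, edgeR's quasi-likelihood test) and held in 8 of 8 leave-one-out fits.

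The complexes around these genes were followed in 5 lists. Of 15 further subunits of H3K4 methyltransferase complexes, 3 rose and 4 fell in MV4-11 with 8CA at 24 h, 0 and 4 with 8AA, and in KG-1a 3 and 6 with 8CA and 2 and 4 with 8AA. Across all genes, 21.2% were called higher and 22.7% lower in MV4-11 with 8CA at 24 h and 13.9% and 15.3% with 8AA. For KG-1a the shares were 23.4% and 24.0% upon 8CA and 25.4% and 26.6% upon 8AA. The 3 and 4 of 15 in MV4-11 with 8CA are near those shares. The median log2 fold change of the 15 lay between −0.077 and −0.029 in these 4 comparisons, beside 0.002 to 0.013 over all genes. WDR5, the core subunit that all these complexes share, fell in 6 of the 8 comparisons, by up to 0.41 on the log2 scale. PAXIP1, a subunit of the KMT2C and KMT2D complexes, also fell in 6 of 8, and HCFC1, a host cell factor bound by KMT2A and KMT2B complexes, in 5 of 8. Of the other core subunits, all described after their values were seen, ASH2L rose in 4 of 8, DPY30 fell in 2 and RBBP5 was called in 0, and differences between them were not tested.

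Of the 13 listed partners of the super elongation complex and DOT1L, 6 rose with 8CA at 24 h in each line, 1 of 12 tested fell in MV4-11 and 2 of 13 in KG-1a. With 8AA at 24 h, 2 rose and 0 fell in MV4-11 and 3 rose and 2 fell in KG-1a. The shares of all genes called higher were 21.2% (MV4-11) and 23.4% (KG-1a) with 8CA, and 13.9% and 25.4% with 8AA, so the 8AA counts are near the background. MLLT10 (AF10), which binds DOT1L, rose in 3 of 8 comparisons, by 0.29 in MV4-11 and 0.34 in KG-1a with 8CA at 24 h, while DOT1L fell. MLLT6 (AF17), a relative of MLLT10, was called higher in 3 and lower in 3 of 8 comparisons. It fell in KG-1a with 8AA at 8 h by 0.49 and rose with 8CA at 24 h by 0.15. ELL3 rose in KG-1a with 8AA by 0.75 at 8 h and 0.60 at 24 h. Of the 6 genes of the PAF1 complex, which also recruits KMT2A, WDR61 fell in 3 of 8 comparisons, by 0.43 in KG-1a with each drug at 24 h. CDC73 was called higher once and lower in 2 comparisons, and PAF1 fell once, by 0.19 in KG-1a with 8CA at 24 h. At 24 h in MV4-11, 0 of the 6 rose and 2 fell with 8CA, and 0 rose and 1 fell with 8AA. In KG-1a, 1 rose and 2 fell with 8CA, and 0 rose and 2 fell with 8AA. The shares of all genes given above apply here too.

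Of the 5 H3K4 demethylase genes, which encode the opposing activity, KDM5B rose in 8 of 8 comparisons, by 0.55 in MV4-11 and 0.41 in KG-1a with 8CA at 24 h (adjusted p = 1.42e-07 and 5.94e-07, edgeR's quasi-likelihood test). KDM5A rose in 4 of 8 and KDM1A (LSD1) fell in 6 of 8, by up to 0.28. With 8CA at 24 h, 2 of the 5 rose and 1 fell in MV4-11 and 3 rose and 2 fell in KG-1a, beside shares over all genes of 21.2% higher and 22.7% lower (MV4-11) and 23.4% and 24.0% (KG-1a). Of 12 genes listed as targets of KMT2A fusions, 10 were tested in MV4-11 and 7 rose with 8CA at 24 h, with 0 lower and a median of 0.227, against 21.2% of all genes higher. In KG-1a 11 were tested, of which 2 rose and 2 fell, against 23.4% and 24.0% of all genes. With 8AA at 24 h, 3 rose and 0 fell in MV4-11 (13.9% of all genes higher), and 4 rose and 2 fell in KG-1a (25.4% higher and 26.6% lower). JMJD1C rose in 7 of 8 comparisons and ZEB2 in 5 of 8. HOXA7, tested in KG-1a alone, fell in 4 of 4, by up to 0.54.

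The genes whose 8 changes were most like those of KMT2A, by root mean square difference among 9908 genes tested in both lines, were RNF214 (0.0399 on the log2 scale), MED13L (0.0436) and BBX (0.0437). For MLLT3, with the largest mean absolute change of the 10 genes, they were HDAC9 (0.208), APOBEC3F (0.248) and ATP1B1 (0.265). These distances are descriptions over 8 comparisons that share untreated libraries. MLLT3 itself held 11 to 43 counts per library in MV4-11, so its changes were set beside those of better measured genes.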

How the data were processed

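RNA-seq counts of 24 libraries were analysed. The table deposited by the authors holds raw, unnormalized counts of reads for 23354 genes, with symbol, position and exon length, and the titles of the 24 libraries name its count columns. The submitters' processing notes name Trimmomatic, STAR 2.6.0, HTSeq 0.11.1, edgeR and the builds hg19 and hg38, with no role. Strand use is not given in the sources used here. Of 22414 genes matched by symbol, the deposited positions overlap those of GRCh38 for 14.1%, so RefSeq promoters were matched by symbol alone.

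Genes were filtered by filterByExpr (minimum count 10), scaled by TMM and tested by edgeR 4.0.16 in R 4.3.3 (quasi-likelihood test, Benjamini-Hochberg adjustment over all genes tested, threshold 0.05), with 1 coefficient per group. The 12 libraries of a line were fitted together, and all 24 for comparisons between lines. Standard errors are the log2 fold change divided by the square root of F, and confidence intervals are 95%. The scripts were tested on simulated data. With 2 libraries per group, precision rests on the spread shared between groups, at 18633963 to 24520078 counts per library.

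The 10 genes and the 5 pathway lists were chosen with earlier results of these data known. From each list the text names the 3 genes with most calls of 1 direction among the 8 comparisons of treated with untreated cells, with ties broken by the mean absolute change. ASH2L, DPY30 and RBBP5 were named after their values were seen. The genes most like KMT2A and MLLT3 are the 3 with the smallest root mean square difference. The alternatives tried were scaling by DESeq2's size factors, by library size alone or by the upper quartile, no filter, at least 10 counts in every library, DESeq2 1.42.0, the replicate letter as a block, a log2 fold change of 0.5 or more in size, fits of 6 or 24 libraries, and each library left out. Protein sequences were not used here.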

Additional observations from a re-analysis of the deposited data

Results flagged for a closer look

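For 5 genes the change at 24 h differed from that at 8 h by the test of the difference itself. With 8CA in MV4-11 the 24 h change exceeded the 8 h change by 0.45 on the log2 scale for KMT2C and by 0.36 for KMT2D, and with 8AA by 0.38 for KMT2D. With 8CA in KG-1a the difference was 0.38 for KMT2A, 0.32 for PSIP1 and −0.24 for MLLT1. Called in MV4-11 were 2 of 10 genes with 8CA and 1 of 10 with 8AA, against 16.3% and 4.63% of all genes. In KG-1a it was 3 of 10 with 8CA and 0 of 10 with 8AA, against 23.9% and 18.3%. These counts are near the background, and the calls of KMT2D, PSIP1 and MLLT1 were not stable when single libraries were left out.

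For 2 genes the change with 8AA differed between the lines, again by the test of the difference. That was 1 of 10 at 8 h and 1 of 10 at 24 h, against 11.1% and 22.3% of all genes, so no more than the background. MV4-11 exceeded KG-1a by 1.39 on the log2 scale for MLLT3 at 8 h, where MV4-11 held 11 to 43 counts per library, and 0.43 for MLLT1 at 24 h, where the 8AA libraries of KG-1a stand apart.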

How the results depend on the processing

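No called gene reversed its direction under any alternative, and the causes of the changes below were not tested. The 7 genes called between untreated lines were called under every alternative run. With a log2 fold change of 0.5 or more in size required, 1 of 5 calls was left in MV4-11 with 8AA at 8 h (MLLT3), and 0 in the other comparisons of treated with untreated cells, of 8AA with 8CA and of times, and 0 for the 8AA difference between lines at 24 h. In MV4-11 with 8CA at 8 h, 2 genes in place of 1 were called under library size only, upper quartile, no filter, at least 10 counts in every library and all 24 libraries. In MV4-11 with 8AA at 24 h, where 2 were called, there were 4 by library size only, 5 with no filter, 1 by DESeq2's Wald test, 5 with only the 6 libraries of the line and hour and 1 with all 24. The count for 8AA against 8CA at 24 h was 2 in place of 4 in KG-1a by library size only and with the 6 libraries, and 1 in place of 4 in MV4-11 by DESeq2. With no filter, 2 genes in place of 1 differed between times in MV4-11 with 8AA, 1 in place of 0 between lines with 8CA at 24 h, and 3 in place of 1 with 8AA at 24 h. The letters A and B pair no samples as far as the labels say, and deviations of same-lettered libraries correlated from −0.13 to 0.26. With the letter as a replicate block, 2 genes in place of 1 were called in MV4-11 with 8CA at 8 h and 3 in place of 1 between times with 8AA, and no other count moved by over 1.5 times.

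With 1 library left out, the counts in MV4-11 lay between 0 and 2 (8CA, 8 h), 2 and 5 (8AA, 8 h), 4 and 7 (8CA, 24 h) and 0 and 2 (8AA, 24 h), and in KG-1a at 0 (8CA, 8 h), between 1 and 4 (8AA, 8 h), 5 and 6 (8CA, 24 h) and 3 and 5 (8AA, 24 h). For 8AA against 8CA they were 0 at 8 h and 1 at 24 h in MV4-11, and 1 to 3 and 1 to 5 in KG-1a. For the difference between times they were 1 to 4 and 0 to 2 in MV4-11 and 1 to 3 and 0 to 5 in KG-1a, for 8CA and 8AA. For the 8AA difference between lines at 24 h they were 1 to 3, and between untreated lines 7 to 9 at 8 h. A lone library left in a group is assumed to vary like the other groups. MLLT3 in MV4-11, at 11 to 43 counts per library, is the value most limited by depth.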
